A study of Mus musculus with 6 samples.

Results

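The genes described here are 34 transcripts of the glucocorticoid response, 32 targets that glucocorticoids are known to induce in one tissue or another and the 2 corticosteroid receptors, Nr3c1 and Nr3c2. They were selected on their symbols, and their list was drawn up with earlier results of the same libraries known. Of the 46078 rows of the deposited table, 34 carried these names, each matched to 1 Ensembl identifier. A mean of at least 10 normalized reads over the 6 libraries was asked of every gene tested, which 17605 genes met, 33 of the 34 members among them. Lcn2 was the member closest above this limit, with a mean of 37.7 normalized reads, and Slc10a6 was the member below it, with 0.143. Since the choice of members drew on the comparison of these same groups, the counts and medians given for them are a description and not a test of the list.

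The libraries came from the striatum of 12-week-old male mice on the C57BL/6J strain. Shank3 TG mice carried an EGFP-Shank3 transgene that overexpresses Shank3, a scaffold protein of excitatory synapses, in addition to their own Shank3 gene, and wild-type (WT) mice had no transgene. RNA was sequenced from 3 TG and 3 WT samples, and between 27689589 and 36647626 reads per library were recovered from the deposited normalized read counts. Per the study's methods, each group was 3 mice and the striatum was taken from each brain. Shank3 stood at 28081 ± 1934 in TG against 13530.2 ± 531 in WT (SD, n = 3 each), a log2 fold change of 1.05 (adjusted P = 7.04e-05 by limma), and it was the only gene of the 17605 called at an adjusted P under 0.05. Markers of striatal spiny neurons were abundant in every library, with a summed level of 121107 to 169974 normalized reads over 9 genes. In such bulk tissue, fewer cells of a type and less RNA per cell cannot be told apart.

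Glucocorticoids are steroid hormones of the adrenal cortex, corticosterone being the main one in mice, and their release follows the time of day and rises with stress. In the cell they bind the glucocorticoid receptor and, with higher affinity, the mineralocorticoid receptor, which are held in the cytosol by heat shock chaperones and then move to the nucleus. The receptor dimer binds short paired DNA sequences and turns on genes that restrain inflammation, shift fuel use and feed back on the receptor itself. In brain these targets are expressed in glia and vessels as well as in neurons.

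No member passed an adjusted P under 0.05 by limma, with adjusted P values of the 33 tested members between 0.971 and 0.998. The background was low as well, since 0.00568% of all genes were called. Of the members, 26 had a higher and 7 a lower level in TG on the log2 scale, with a median log2 fold change of 0.11, where the median over all genes was -0.0018 and the lower and upper quartiles were -0.07 and 0.06. Between these quartiles lay 11 members, while 21 were above the upper quartile and 1, Cebpb, was below the lower one. An unadjusted limma P under 0.05 was reached with TG higher by 5 members, Lcn2, 8430408G22Rik, Tsc22d3, Errfi1 and Txnip, beside 1.98% of all genes in that direction. With TG lower, 0 members and 2.33% of all genes reached it. All 3 TG values lay above all 3 WT values for 4 of these members, Txnip being the exception, against 5.06% of all genes, and no member had its TG values all below the WT values, against 5.05% of all genes. By edgeR and limma-voom 0 members were called as well. DESeq2 on the recovered reads called 0.0398% of all genes and 1 member, Lcn2. With 3 against 3 libraries an exact permutation test of a single gene cannot give a two-sided P below 0.1.

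**Figure D1:**
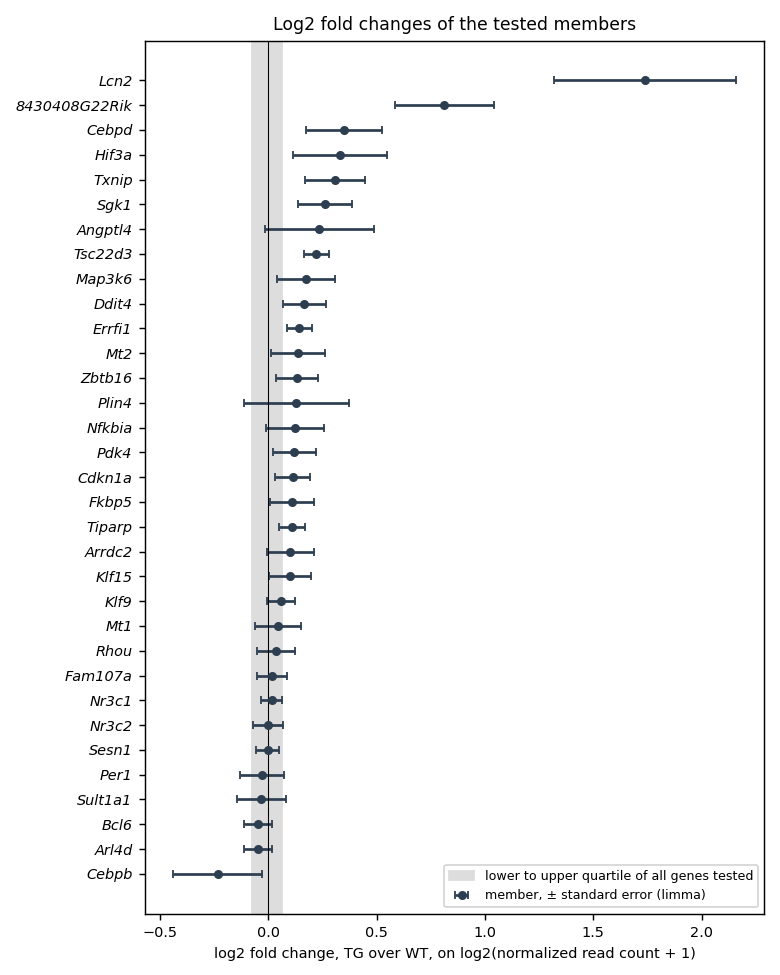
Log2 fold change of TG over WT, on log2(normalized read count + 1), for the 33 tested members in order of size, with points for the limma estimates and bars for their standard errors. The grey band spans the lower to the upper quartile of all 17605 genes tested, -0.07 to 0.06, and 21 members lie to its right, with Lcn2 at 1.74 and 8430408G22Rik at 0.81 farthest out.

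Promoters were read to show what receptor-like sequence stands at these genes. RefSeq promoters of 300 bases (GRCm38.p6, 250 bases before and 50 after a transcription start) were held for 30 of the 34 members, with 44 starts in all. Nr3c1, Angptl4, Cebpd and Zbtb16 had none. Searched on both strands were the single arm of the receptor's palindrome, AGAACA or TGTTCT, both arms in that order with 3 bases between them, and the core ACANNNTGT, in which N is any base and which lies inside the pair of arms wherever that occurs. Both arms at that spacing were found in 3 of 32851 promoters, or 0.00913%, and 1 of these was a start of Sgk1. The single arm was in 19.0% of all promoters and in 6 of the 30 member genes, or 20.0%, beside 21.3% of all genes. The core was in 6.85% of all promoters and in 7 of the 30 member genes, or 23.3%, beside 7.9% of all genes. These genes were Fam107a, Lcn2, Map3k6, Mt1, Sgk1, Slc10a6 and Txnip. A gene with more starts, such as Sgk1 with 6, has more windows in which letters can match, and a match is a description of the letters and not a bound site.

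The promoter of Sgk1 with both arms is shown with those of the members with unadjusted P under 0.05 that held any of these letters, Lcn2, Txnip and Tsc22d3, and with those of Mt1, an abundant member with the core, and Fam107a, where a core and a single arm overlap. Capitals mark the bases matched by a single arm, by both arms or by the core. They are written 5′ to 3′ in the direction of the gene.
Sgk1 (chr10:21993640-21993939, plus strand): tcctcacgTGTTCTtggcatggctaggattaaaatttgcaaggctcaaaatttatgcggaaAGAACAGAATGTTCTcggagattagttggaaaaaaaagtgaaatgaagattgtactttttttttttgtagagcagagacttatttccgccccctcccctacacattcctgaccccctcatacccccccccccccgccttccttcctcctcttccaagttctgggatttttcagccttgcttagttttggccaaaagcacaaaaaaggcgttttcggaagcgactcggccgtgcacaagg
Lcn2 (chr2:32387690-32387989, minus strand): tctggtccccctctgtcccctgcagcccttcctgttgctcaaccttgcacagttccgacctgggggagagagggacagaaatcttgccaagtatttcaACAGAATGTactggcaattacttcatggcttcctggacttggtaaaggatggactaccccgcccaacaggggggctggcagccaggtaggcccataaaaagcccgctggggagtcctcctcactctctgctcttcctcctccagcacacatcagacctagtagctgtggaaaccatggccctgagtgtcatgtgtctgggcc
Txnip (chr3:96557707-96558006, plus strand): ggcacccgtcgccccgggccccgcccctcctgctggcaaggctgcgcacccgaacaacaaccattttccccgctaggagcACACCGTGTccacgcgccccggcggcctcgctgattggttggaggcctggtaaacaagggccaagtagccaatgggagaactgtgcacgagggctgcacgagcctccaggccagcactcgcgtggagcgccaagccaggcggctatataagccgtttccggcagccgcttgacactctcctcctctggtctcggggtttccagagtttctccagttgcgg
Tsc22d3 (chrX:140600473-140600772, minus strand): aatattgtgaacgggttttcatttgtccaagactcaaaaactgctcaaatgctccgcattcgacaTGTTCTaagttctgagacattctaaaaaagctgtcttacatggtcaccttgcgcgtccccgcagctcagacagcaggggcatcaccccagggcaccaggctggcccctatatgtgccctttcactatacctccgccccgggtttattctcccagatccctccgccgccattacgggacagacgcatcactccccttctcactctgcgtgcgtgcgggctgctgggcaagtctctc
Mt1 (chr8:94178839-94179138, plus strand): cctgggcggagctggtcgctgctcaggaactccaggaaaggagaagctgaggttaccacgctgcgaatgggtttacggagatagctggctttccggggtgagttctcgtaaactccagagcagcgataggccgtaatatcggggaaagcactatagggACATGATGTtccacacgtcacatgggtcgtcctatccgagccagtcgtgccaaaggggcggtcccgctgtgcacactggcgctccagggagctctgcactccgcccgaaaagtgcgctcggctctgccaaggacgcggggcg
Fam107a (chr14:8309730-8310029, minus strand): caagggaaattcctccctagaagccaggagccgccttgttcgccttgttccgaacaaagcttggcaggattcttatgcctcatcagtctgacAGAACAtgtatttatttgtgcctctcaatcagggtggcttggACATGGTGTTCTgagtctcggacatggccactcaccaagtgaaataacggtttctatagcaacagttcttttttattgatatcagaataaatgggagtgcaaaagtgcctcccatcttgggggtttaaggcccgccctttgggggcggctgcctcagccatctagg
In Sgk1 the pair of arms began at base -189, the start itself being base 0, so that the core began at -186. The core began at -152 in Lcn2, at -170 in Txnip, at -92 in Mt1 and at -116 in Fam107a. Tsc22d3 had 1 single arm, at -185 of 1 of its 3 starts. The promoter of 8430408G22Rik, the member with the second largest fold change, held none of the letters searched. Sequence outside these promoters was not searched, so a gene without a match here may hold the letters elsewhere.

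Both receptors were well expressed, and their values overlapped between the groups. Nr3c1 encodes the glucocorticoid receptor, and it measured 3116, 3272 and 3461 in TG replicates 1 to 3 and 3255, 3296 and 3186 in WT replicates 1 to 3. The 6 values spanned a ratio of 1.11 from lowest to highest library, the second narrowest range of any member, with a log2 fold change of 0.02 ± 0.05 (SE). Nr3c2, which encodes the mineralocorticoid receptor, had 1383, 1467 and 1222 in TG replicates 1 to 3 and 1411, 1349.5 and 1308 in WT replicates 1 to 3, also overlapping, with a log2 fold change of -0.00 ± 0.07 (SE). Per kb of exon, Nr3c1 exceeded Nr3c2 in every library by 1.88 to 2.39 times. A part of the Nr3c2 exons, 3.82%, is shared with Gm10649 on the opposite strand, and the kit used does not mark strand.

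Among the feedback and anti-inflammatory mediators, Tsc22d3 separated the groups and the others did not. Tsc22d3 encodes GILZ, a leucine zipper protein that carries part of the anti-inflammatory action of glucocorticoids (ENSMUSG00000031431, chrX:140539528-140600659, minus strand in GRCm38). In normalized reads it stood at 2316, 2346 and 2326 in TG replicates 1 to 3 and 1841, 2079 and 2083 in WT replicates 1 to 3. The TG libraries were nearly level, at 2329 ± 15.2 in TG against 2001 ± 138 in WT (SD, n = 3 each), and each exceeded every WT library, WT replicate 1 being the lowest. The log2 fold change was 0.22 ± 0.06 (SE), with an unadjusted limma P of 0.00276 and an adjusted P of 0.971. Without WT replicate 1 it was 0.16.

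Fkbp5 encodes FKBP51, a receptor co-chaperone that lowers hormone binding and closes a feedback loop (ENSMUSG00000024222, chr17:28399094-28517527, minus strand). It measured 1176, 1387 and 1315 in TG replicates 1 to 3 and 1092, 1098 and 1421 in WT replicates 1 to 3. The highest of the 6 values was in WT replicate 3 and the lowest in WT replicate 1, so that the WT libraries spanned the TG libraries, with a log2 fold change of 0.11 ± 0.10 (SE). Nfkbia encodes the inhibitor that holds NF-kappaB in the cytosol, and its counts were 847, 752 and 590.1 in TG replicates 1 to 3 and 642, 776 and 582 in WT replicates 1 to 3. Replicate 3 was the lowest library of each group, and the log2 fold change was 0.12 ± 0.13 (SE).

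The transcription factors had no common direction, with 5 of 8 higher and 3 lower in TG, and all 8 overlapped between the groups. Zbtb16, also called PLZF, is a zinc finger repressor, at 575, 473 and 599 in TG replicates 1 to 3 and 469, 494 and 534 in WT replicates 1 to 3. TG replicate 2 lay within the WT values, and the log2 fold change was 0.13 ± 0.10 (SE). Per1 is a repressor of the circadian clock that glucocorticoids also induce directly, and it had 4901, 4948 and 5358 in TG replicates 1 to 3 and 4526, 4826 and 6316 in WT replicates 1 to 3. WT replicate 3 was the highest library and WT replicate 1 the lowest, and the log2 fold change was -0.03 ± 0.10 (SE). Klf9, a Kruppel-like factor, was the most abundant transcription factor of the members at 1420.2 normalized reads per kb, with 6660.1, 6961 and 7294 in TG replicates 1 to 3 and 6078, 6838 and 7199 in WT replicates 1 to 3. It had WT replicate 1 as its lowest library too, and a log2 fold change of 0.06 ± 0.06 (SE).

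Klf15, a relative of Klf9 that controls amino acid and glucose metabolism, averaged 739 in TG and 693 in WT (log2 fold change 0.10 ± 0.10, SE). Bcl6, a repressor known from germinal centre B cells, averaged 816 in TG and 844 in WT (-0.05 ± 0.06, SE). The C/EBP factors differed in sign, and neither fold change reached an unadjusted P under 0.05. Cebpd averaged 141 in TG and 110.4 in WT (0.35 ± 0.18, SE), whereas Cebpb had 90.1, 97.8 and 62.3 in TG replicates 1 to 3 and 91.6, 80.4 and 122 in WT replicates 1 to 3 (-0.23 ± 0.20, SE). Cebpb spread widely, from TG replicate 3 as its lowest library to WT replicate 3 as its highest. Both share exon bases with a gene on the opposite strand, 20.7% of Cebpb with Tmem189 and 15.0% of Cebpd with Spidr. Tmem189 had a mean of 833 normalized reads against 90.7 for Cebpb, and Spidr had 99.9 against 125.7 for Cebpd. Whether reads of these neighbours entered the counts was not tested. Hif3a, a hypoxia-inducible factor subunit, averaged 263 in TG and 210.4 in WT (0.33 ± 0.22, SE), but its WT replicate 3 was as high as TG replicate 3.

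Of the kinases and regulators of growth and signalling, 7 of 8 were higher in TG, and Errfi1 alone of them had no overlap. Errfi1 encodes MIG6, an inhibitor of the EGF receptor (ENSMUSG00000028967, chr4:150853919-150868892, plus strand). Its counts were 1097, 1081 and 1021 in TG replicates 1 to 3 and 926, 997 and 974 in WT replicates 1 to 3. The gap between the groups was small beside the levels, TG replicate 3 lying just above WT replicate 2, with a log2 fold change of 0.14 ± 0.06 (SE), an unadjusted limma P of 0.0316 and an adjusted P of 0.971. Without WT replicate 1 the log2 fold change was 0.11, and the unadjusted P was under 0.05 only when TG replicate 3 or WT replicate 2 was the library left out, and not by DESeq2.

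Sgk1, the gene with the paired arms shown above, encodes a kinase that raises the activity of ion channels and transporters (ENSMUSG00000019970, chr10:21882184-21999903, plus strand). It measured 4626, 5687 and 4894 in TG replicates 1 to 3 and 3345, 4719 and 4737 in WT replicates 1 to 3. WT replicate 1 stood apart below the other 5 libraries, whereas WT replicates 2 and 3 lay above TG replicate 1. The log2 fold change was 0.26 ± 0.12 (SE) with WT replicate 1 and 0.09 without it.

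Ddit4 encodes REDD1, which restrains mTORC1, and had 1949, 1983 and 1719 in TG replicates 1 to 3 and 1548, 2003 and 1516 in WT replicates 1 to 3. WT replicate 2 was its highest library, and the log2 fold change was 0.17 ± 0.10 (SE). Cdkn1a, the cell cycle inhibitor p21, had 736, 624 and 707 in TG replicates 1 to 3 and 585, 666 and 659 in WT replicates 1 to 3. TG replicate 2 lay below WT replicates 2 and 3, with a log2 fold change of 0.11 ± 0.08 (SE). The remaining 4 overlapped between the groups. Map3k6, a MAP kinase kinase kinase, averaged 145 in TG and 128 in WT (0.17 ± 0.13, SE). Arrdc2, an arrestin-domain protein, averaged 683 in TG and 641 in WT (0.10 ± 0.11, SE). Tiparp, a mono-ADP-ribosyltransferase, averaged 913 in TG and 845 in WT (0.11 ± 0.06, SE), and 5.12% of its exon bases are shared with 4931440P22Rik on the opposite strand. Sesn1, a sestrin that senses leucine, was the flattest member, at 1859 in TG and 1863 in WT (-0.00 ± 0.05, SE), with a ratio of 1.10 between its highest and lowest library.

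The genes of metabolism and transport held both a member without overlap and some of the noisiest members. 8430408G22Rik, named Depp1 in GENCODE, encodes a protein linked to autophagy (ENSMUSG00000048489, chr6:116650609-116652794, plus strand). It reached 81.5, 112 and 124 in TG replicates 1 to 3 and 44.6, 80.4 and 56.9 in WT replicates 1 to 3. The groups touched without overlapping, as TG replicate 1 lay barely above WT replicate 2, and the counts behind them were 95, 100 and 127 reads in TG and 39, 86 and 58 reads in WT. The log2 fold change was 0.81 ± 0.23 (SE), with an unadjusted limma P of 0.0047 and an adjusted P of 0.971, and it ranged from 0.62 to 1.03 when each library was left out in turn.

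Txnip binds thioredoxin and limits glucose uptake (ENSMUSG00000038393, chr3:96557957-96561883, plus strand), and it had 927, 777 and 619 in TG replicates 1 to 3 and 599.7, 716 and 547 in WT replicates 1 to 3. TG replicates 1 and 2 were the highest libraries, but TG replicate 3 lay below WT replicate 2, so the groups overlapped. The log2 fold change was 0.31 ± 0.14 (SE), with an unadjusted limma P of 0.0486 and an adjusted P of 0.971, and it was 0.17 without TG replicate 1. As for Errfi1, the unadjusted P stayed under 0.05 only when TG replicate 3 or WT replicate 2 was the library left out. Of the Txnip exon bases 19.4% are shared with Gm15441 on the opposite strand, a gene with a mean of 1.23 normalized reads.

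Pdk4, the kinase that switches off pyruvate dehydrogenase, had 605, 469 and 527 in TG replicates 1 to 3 and 476, 527 and 462 in WT replicates 1 to 3. Only TG replicate 1 stood above the rest, with a log2 fold change of 0.12 ± 0.10 (SE). Angptl4, an inhibitor of lipoprotein lipase, had 93.5, 59.6 and 54.5 in TG replicates 1 to 3 and 58.4, 74.8 and 42.2 in WT replicates 1 to 3 (0.24 ± 0.25, SE). Without TG replicate 1, its highest library, the log2 fold change of Angptl4 was 0.0013. Plin4, a coat protein of lipid droplets, had 128, 185 and 180.1 in TG replicates 1 to 3 and 102, 146 and 219 in WT replicates 1 to 3 (0.13 ± 0.24, SE), both its lowest and its highest library being WT. Plin4 shares 0.294% of its exon bases with Hdgfl2 on the opposite strand, a gene with a mean of 2561 normalized reads. Sult1a1, a phenol sulfotransferase, averaged 185 in TG and 189 in WT (-0.03 ± 0.11, SE). It shares 4.05% of its exon bases with Sgf29 on the opposite strand, a gene with a mean of 253 normalized reads. Slc10a6, a transporter of sulfated steroids, had 1 read in TG replicate 1 and 0 in the other 5 libraries. A count of 0 allows up to 3 reads, which is 2.81 to 3.43 normalized reads in those 5 libraries, so no fold change is given.

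Lcn2 had the largest fold change of all members, at the lowest level per kb of the 33 tested. It encodes lipocalin 2, a secreted protein that binds iron carriers (ENSMUSG00000026822, chr2:32384633-32388252, minus strand). Its levels were 105, 48.3 and 27.3 in TG replicates 1 to 3 and 10.3, 17.8 and 17.7 in WT replicates 1 to 3, from 122, 43 and 28 reads in TG and 9, 19 and 18 reads in WT. Every TG library exceeded every WT library, but the TG values spread over a wide range, with replicate 1 far above replicate 3. The log2 fold change was 1.74 ± 0.42 (SE), with an unadjusted limma P of 0.00181 and an adjusted P of 0.971. The adjusted P was 0.0308 by DESeq2, 0.976 by edgeR and 0.975 by limma-voom. Without TG replicate 1 the log2 fold change of Lcn2 was 1.24.

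Mt1 and Mt2, the metallothioneins that bind zinc and copper, lie close together on the plus strand of chromosome 8 and were the most abundant members per kb of exon, at 3308 and 3579 normalized reads per kb. Mt1 had 5050.4, 4000.2 and 3562 in TG replicates 1 to 3 and 3879.8, 4369 and 3865 in WT replicates 1 to 3. Its log2 fold change was 0.05 ± 0.11 (SE), and both its highest and its lowest library were TG. Mt2 had 2747, 2041 and 1858 in TG replicates 1 to 3 and 1815, 2225 and 1939 in WT replicates 1 to 3, with a log2 fold change of 0.14 ± 0.13 (SE). TG replicate 1 was the highest library for both genes. The ratio of Mt1 to Mt2 normalized reads stayed between 1.84 and 2.14 in all 6 libraries. The metal response core, TGCGCNC or TGCACNC on either strand, was in 25.7% of all promoters. It was in 12 of the 30 member genes, or 40.0%, beside 28.2% of all genes. It was found 3 times in Mt1 and 4 times in Mt2, and at least 3 times in 1.97% of all promoters, a minimum equal to the count in Mt1. This core and the E-box CACGTG were searched after the promoters had been seen. The E-box, the clock factors' binding letters, was in 7.15% of all promoters. It was in 5 of the 30 member genes, or 16.7%, beside 8.09% of all genes. These were Bcl6, Fkbp5, Klf15, Per1 and Sgk1, and in Sgk1 it overlapped the more distant single arm.

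The small GTPases and the actin-linked member had small fold changes. Arl4d, an ARF-like GTPase, averaged 1288 in TG and 1329.6 in WT (-0.05 ± 0.06, SE). Rhou, an atypical small GTPase, averaged 1488 in TG and 1454 in WT (0.04 ± 0.09, SE). Fam107a, an actin-binding protein also called DRR1, had the most reads of any member, averaging 12331 in TG and 12146 in WT (0.02 ± 0.07, SE).

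**Figure D2:**
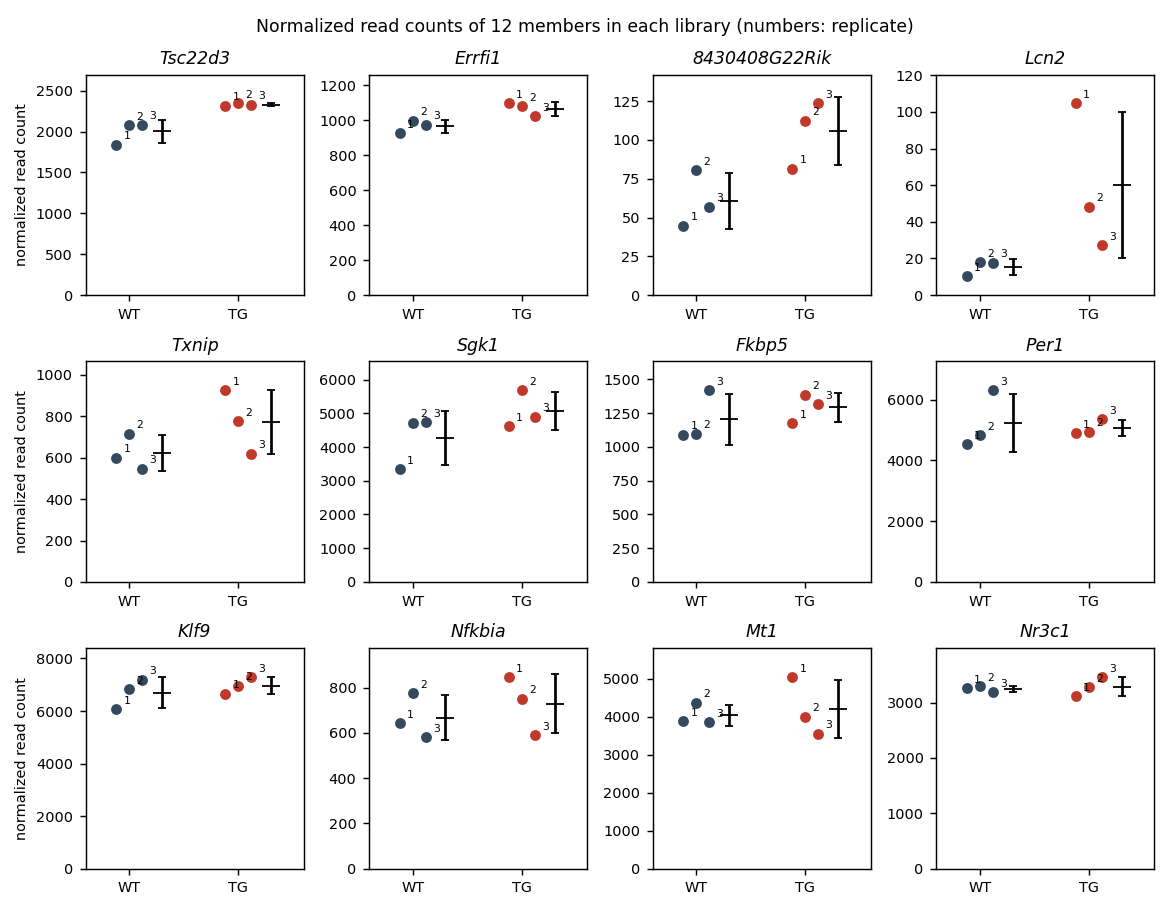
Normalized read counts (linear axes from 0) of 12 members in each WT library (dark) and TG library (red), numbered by replicate, with the mean ± SD of each group beside the points. The groups do not overlap for Tsc22d3, Errfi1, 8430408G22Rik and Lcn2. WT replicate 1 is the lowest point for each of these genes and also for Sgk1, Fkbp5, Per1 and Klf9.

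Levels of the members spanned a wide range. Per kb of exon they ran from 14.4 normalized reads for Lcn2 to 3579 for Mt2, and 24 of the 33 lay above the median of all genes tested, 121 normalized reads per kb. After Mt2 and Mt1 came Fam107a with 3162, Klf9 with 1420.2, Ddit4 with 1018 and Sgk1 with 952. In this order the libraries of Mt2, Mt1 and Fam107a overlapped with each other, as did those of Ddit4 and Sgk1. The widest spreads over the 6 libraries were those of Lcn2, 8430408G22Rik, Angptl4, Plin4 and Cebpb whose means ran from 37.7 to 160.0 normalized reads.

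**Figure D3:**
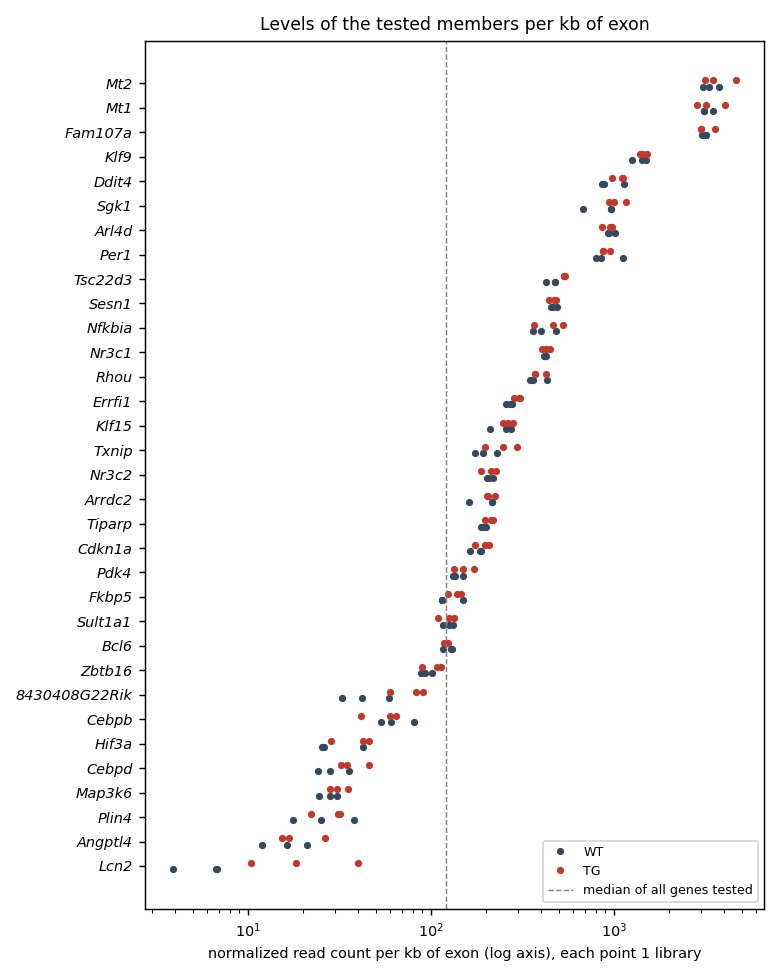
Normalized read count per kb of exon (log axis) of the 33 tested members in order of their mean, each point 1 library, TG in red and WT in dark, with the median of all genes tested, 121, as a dashed line. Mt2, Mt1 and Fam107a lie highest and Angptl4 and Lcn2 lowest.

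The members varied more between libraries than most genes. Their median SD within a group was 0.16 on the log2 scale, against 0.11 over all genes, and their median range over the 6 libraries was 0.40 against 0.29. For the 31 tested members other than the receptors, a library score was taken as the mean of log2(normalized read count + 1) minus each gene's mean over the 6 libraries. The scores were 0.15, 0.10 and 0.02 in TG replicates 1 to 3 and -0.23, -0.02 and -0.03 in WT replicates 1 to 3. All TG scores exceeded all WT scores, yet TG replicate 3 and WT replicate 2 lay close together and WT replicate 1 stood far below the rest. The mean deviation of all genes was between -0.01 and 0.01 in every library.

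In WT replicate 1, 28 of the 31 members were below their mean, and it was the lowest library for 18 of them, or 58.1%, against 16.5% of all genes. TG replicate 1 was the highest library for 13 of the 31, or 41.9%, against 17.8% of all genes. The difference in score between the groups was 0.18 (SD 0.07 over the TG and 0.12 over the WT libraries). It was 0.11 without WT replicate 1, and likewise 0.11 without Lcn2 and 8430408G22Rik. Without these 2 genes the groups overlapped, TG replicate 3 scoring 0.0001 and WT replicate 3 scoring 0.01. The median log2 fold change of the 33 members was 0.05 without WT replicate 1, with 23 of them higher in TG. Leaving out this library also brought the count at an unadjusted limma P under 0.05 from 5 to 3, the members remaining being Tsc22d3, 8430408G22Rik and Lcn2. These 3 had an unadjusted P under 0.05 whichever of the 6 libraries was left out. The 6 fits share most of their libraries, and the share of all genes that did the same was not counted.

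**Figure D4:**
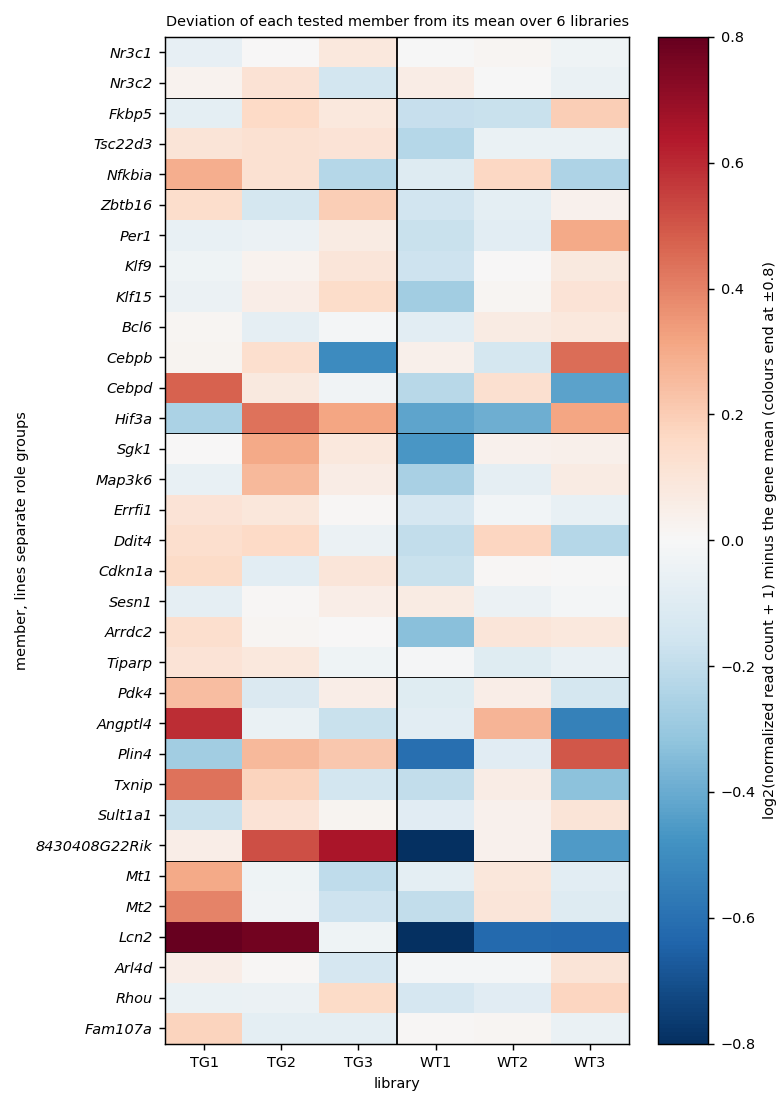
Deviation of log2(normalized read count + 1) from the gene's mean over the 6 libraries, for the 33 tested members (rows, in role groups) in each library (columns), red above and blue below the mean, with colours ending at ±0.8. The column of WT replicate 1 is blue for 28 of the 31 members other than the receptors.

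Other gene lists were set beside the score. Another 12 genes known to be induced by glucocorticoids, among them Dusp1, Per2, Glul and Anxa1, had 11 tested, of which 5 were higher and 6 lower in TG, with 0 at an unadjusted P under 0.05 by limma and a median log2 fold change of -0.0082. Their mean deviation in WT replicate 1 was -0.18, again the lowest of the 6 libraries, but WT replicates 2 and 3 were at 0.06 and 0.07, within the span of the TG libraries. The 18 receptor chaperones, cofactors and genes of steroid handling, such as Hsp90aa1, Fkbp4, Ncoa1 and Hsd11b1, had 9 higher and 9 lower, 0 at an unadjusted P under 0.05 by limma, and a median of -0.0014. By count of genes, their extremes fell in the same libraries as those of the induced members. WT replicate 1 was lowest for 9 of 18, against 16.5% of all genes, and TG replicate 1 highest for 7 of 18, against 17.8%. The mean deviation of these 18 genes was highest in TG replicate 1 too, at 0.040. It was lowest in TG replicate 2, at -0.037, with WT replicate 1 at -0.034, where the score of WT replicate 1 was -0.23. Immediate early genes, which follow neuronal activity, had 5 of 9 higher and a median of 0.01, and 0 of 9 higher with a median of -0.16 without TG replicate 1. Clock genes had 6 of 12 higher and a median of 0.01. Neither the immediate early nor the clock genes had a gene at an unadjusted P under 0.05 by limma. The mean deviation of the immediate early genes was highest in TG replicate 1, at 0.29, as in the score. That library was the highest for 5 of 9 of them. Unlike the score, WT replicate 3 was at 0.19 and TG replicate 2 was lowest at -0.21. For the clock genes TG replicate 1 was lowest, at -0.08.

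**Figure D5:**
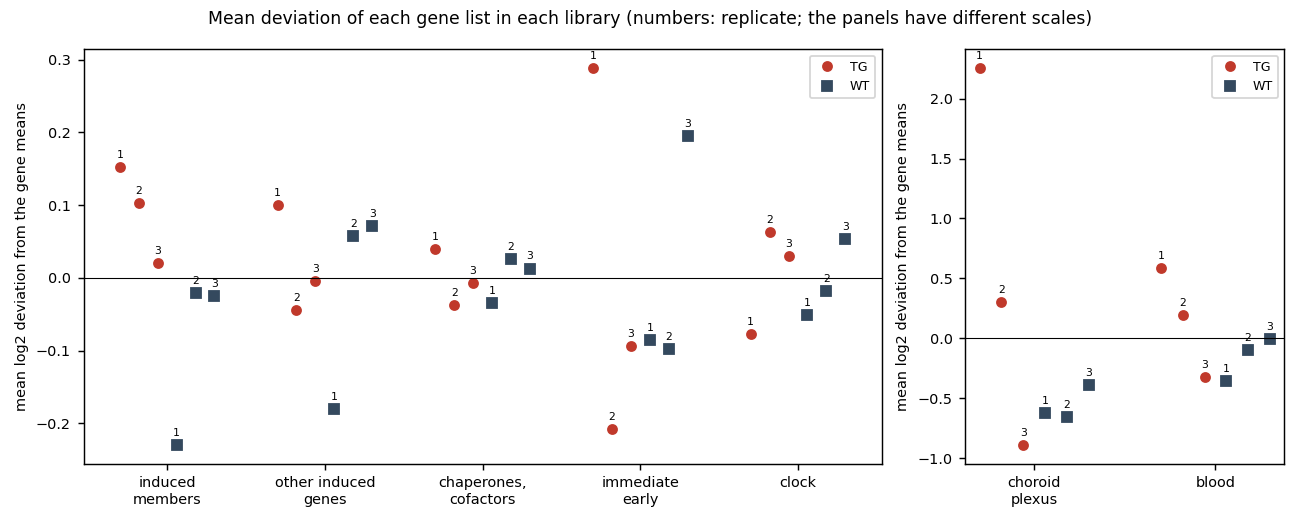
Mean log2 deviation of each gene list from the genes' means over the 6 libraries, 1 point per library, circles for TG and squares for WT, numbered by replicate, with a wider scale in the right panel. WT replicate 1 is lowest for the induced members at -0.23 and for the other induced genes at -0.18, and TG replicate 1 is highest for the choroid plexus markers at 2.25.

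Markers of other cell types also differed between libraries. Of 12 choroid plexus markers 11 were tested and all 11 were higher in TG, with a median log2 fold change of 0.95 and 4 at an unadjusted P under 0.05 by limma, namely Kl, Prlr, Sostdc1 and Clic6, whose log2 fold changes ran from 0.55 for Clic6 to 1.68 for Sostdc1. All 3 TG values lay above all 3 WT values for 3 of the 11, against 5.06% of all genes. TG replicate 1 was the highest library for all 11. Its mean deviation was 2.25 where that of TG replicate 3 was -0.89, the lowest of the 6 libraries. Without TG replicate 1, 8 of the 11 were higher and 3 lower, with a median of 0.28. Their summed level was 8482 to 29027 normalized reads in TG and 8103 to 9233 in WT, the highest value being TG replicate 1, which was also the highest library for 13 members including Lcn2, Txnip, Mt1 and Mt2. Kcnj13 was the untested marker and had 0 reads in WT replicate 3. The part of choroid plexus tissue in the members' values was not tested, and without TG replicate 1 the median log2 fold change of the members was 0.07.

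Blood markers were higher in TG for 5 of 5, with a summed level of 1868 to 3410 in TG and 1805 to 2286 in WT and their highest value in TG replicate 1, without which their median log2 fold change was 0.09 in place of 0.27. Microglia markers were lower in TG for 8 of 8, with a median of -0.11 and 3 at an unadjusted P under 0.05 by limma, Cx3cr1, C1qa and Ctss at -0.12, -0.17 and -0.19. Their summed level was 11511 to 12725 in TG and 12825 to 13288 in WT. Of 8 astrocyte markers 4 were higher, with a median of -0.01, a summed level of 116137 to 122702 in TG and 112945 to 121424 in WT, and Sox9 (-0.21) at an unadjusted P under 0.05. Of 8 endothelial markers 4 were higher, with a median of -0.0002, a summed level of 11143 to 11692 in TG and 10388 to 11737 in WT, and Ly6c1 (0.22) at an unadjusted P under 0.05. Oligodendrocyte markers had 3 of 8 higher and a median of -0.03, and spiny neuron markers had 1 of 9 higher and a median of -0.14. TG replicate 1 was the lowest library for 9 of 9 spiny neuron markers, and without it 5 of 9 were higher with a median of 0.02. Cortical excitatory neuron markers had 3 of 6 higher and a median of 0.03, with a summed level of 27034 to 38951 in TG and 31759 to 36597 in WT. TG replicate 2 was the lowest library for 6 of 6 of them, and without it 6 of 6 were higher with a median of 0.18. WT replicate 1, the lowest library of the score, was not an extreme of the summed choroid plexus, astrocyte or microglia markers, but it was the lowest for the blood markers and the highest for the endothelial markers. The part of these cell types in the members' values was not tested.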

How the data were processed

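Striatal RNA of 3 Shank3 TG and 3 WT samples was prepared by the submitters with a TruSeq v2 kit, which does not mark strand. Per the labels, reads were trimmed with Trimmomatic 0.35, aligned with TopHat2 2.1.0 to GRCm38 and counted with HTSeq. The annotation release and the strand setting of counting are not given in the sources used here. The deposited signal is a read count per gene divided by a DESeq2 size factor, and 100.0% of values in each library came out as whole reads (tolerance 0.01), so that read counts could be recovered.

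Symbols came from GENCODE M21, in which 45229 of 46078 identifiers matched. Genes with a mean of at least 10 were fitted with limma 3.58.1 in R 4.3.3 on log2(value + 1) with a mean-variance trend, with Benjamini-Hochberg adjustment over 17605 genes. Fold changes are on this scale and understate the change of low genes. The step was tested on simulated data. edgeR 4.0.16, DESeq2 1.42.0 and limma-voom on the recovered reads, other scalings, filters and pseudocounts, leaving out each library and a replicate block were alternatives. Per-library values were given for members fixed by name, those with an unadjusted P under 0.05 or no overlap, and the 5 of widest range. Members, lists and tests were chosen with earlier results of these data known.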

Additional observations from a re-analysis of the deposited data

How the results depend on the processing

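The members' median log2 fold change stayed positive under every alternative run, between 0.05 (without WT replicate 1) and 0.13 (without WT replicate 2). Of the 33 members, 17 were higher and 2 lower in TG under every alternative, and 14 changed sign under at least 1. Most alternatives refit the same 6 libraries, and the share of all genes that kept the same sign was not counted. At an adjusted P under 0.05, 5 genes were called with no filter on low values and 7 by DESeq2, against 1 by limma, and 1 to 2 when each library was left out in turn. The members called were 1 by DESeq2 (Lcn2) and 0 otherwise. With a mean of at least 50, the members at an unadjusted P under 0.05 with TG higher were 3, beside 2.01% of all genes. Lcn2 was not tested there and Txnip did not reach it. Such members were 3 to 8 when each library was left out, with 3 without WT replicate 1 and 8 without TG replicate 3 or WT replicate 2. Over these 6 settings the share of all genes was 1.48% to 2.99%. When each library was left out, fewer values have to be separated. Members with no overlap were then 5 to 9 with TG above WT (9 without WT replicate 3, 7 without WT replicate 2). Of all genes, 8.63% to 12.6% had TG above WT (9.09% without WT replicate 3, 9.61% without WT replicate 2). With TG below WT they were 0 to 1 of the members and 8.37% to 13% of all genes. The score difference was 0.61 when each gene was divided by its SD, which changes the unit. It was 0.11 without Lcn2 and 8430408G22Rik, an alternative chosen after seeing the data. The marker lists without TG replicate 1 or TG replicate 2 were also chosen after seeing the data. The cause of the other shifts was not tested.

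With the replicate block, 1 gene was called and 7 members had an unadjusted P under 0.05 with TG higher, against 5 without it, while the share of all genes was 2.6% against 1.98% with TG higher and 3.21% against 2.33% with TG lower. Same-numbered TG and WT libraries had correlations of their deviations of 0.20, 0.05 and 0.17, one of them under 0.1. These values cannot decide whether libraries of one number were handled together. What the number stands for is not given in the sources used here, and a pairing was not tested. TG replicate 2 correlated best with WT replicate 3, and the other 5 libraries with their own number.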
